A study of Mus musculus with 15 samples.

Results

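The genes of the major histocompatibility complex (MHC, called H2 in the mouse) and of peptide loading were measured in 4 groups of dystrophic mice. The members are the protein-coding genes of the deposited table whose GENCODE symbol starts with H2-, with B2m, Tap1, Tap2, Tapbp, Cd74 and Ciita. They number 46 of 56980 genes: 30 class I heavy chains, 10 class II chains and 6 partner genes. All mice were DBA/2J-mdx, a DBA/2 strain that lacks functional dystrophin and develops severe muscular dystrophy. The tibialis anterior (TA), a muscle of the lower leg, came from mice that entered treatment at 3 months and were collected at 5 months, 4 given dasatinib plus quercetin (D+Q) and 4 given vehicle. Hearts came from other mice, treated from 12 to 16 months of age, 3 given D+Q and 4 given vehicle. Dasatinib, a tyrosine kinase inhibitor, and quercetin, a plant flavonoid, are given together as a senolytic, a treatment meant to remove senescent cells, and every group was dosed 2 times per week. Mice without dystrophy were not analysed here. Tissue, age and length of treatment (2 months for TA, 4 months for heart) changed together and cannot be told apart.

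Class I molecules, a heavy chain paired with beta-2 microglobulin (B2m), show peptides from inside the cell to CD8+ T cells and stand on nearly every cell with a nucleus. Class II molecules, an alpha and a beta chain, show peptides from endocytosed material to CD4+ T cells and are made mainly by dendritic cells, B cells and activated macrophages, under the transactivator Ciita. Healthy muscle fibres carry little of either class, while dystrophic muscle holds many macrophages. DBA/2 mice carry the H2d set of alleles, whereas the reference genome comes from C57BL/6J, which carries H2b. In H2b mice H2-Ea is silenced by a deletion and the class I gene H2-L is missing, so that reads from H2-L of DBA/2 mice have no gene of their own among the members, and reads from divergent alleles can be lost or given to a neighbour. The same alleles were shared by all 15 mice.

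Values are TPM (transcript abundances scaled so that each library has one total), adjusted for transcript length. TPM keeps no depth, so the reads behind a value are unknown and the errors given come from the spread between mice. Differences were fitted with limma on log2(TPM + 0.5), over every gene that reached 0.5 TPM in 3 or more of the mice compared, and a gene was called at an adjusted p-value (Benjamini-Hochberg, over all genes tested) under 0.05 with an absolute log2 difference above 0.5. On this scale changes of genes at low TPM are understated. Of the 46 members, 30 were tested in each comparison (17 class I, 7 class II and all 6 partners), and the others were too low. The sex labels fitted the levels of Xist and of 4 genes of the Y chromosome in 14 of 15 mice. The exception was replicate 3 of the D+Q hearts, labelled male, in which Xist was at 47.2 TPM and Uty at 0, so heart results are also given without it. All 4 D+Q TA mice were male, against 2 of 4 vehicle TA mice. The 7 skeletal muscle markers summed to 52693 to 64892 TPM in TA and the 6 ventricular markers to 21394 to 28377 TPM in hearts, as the tissue labels say. Each mouse had between 21830 and 25378 genes above 0. The D+Q hearts had 22579 to 22818 and the vehicle hearts 24089 to 25378, without overlap. The 10 most abundant genes held 45.4% to 47.3% of TPM in D+Q hearts and 50.1% to 50.7% in vehicle hearts. In hearts these differences between libraries cannot be told apart from D+Q, which bears most on genes at low TPM.

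Class II transcripts were more abundant in TA than in heart, while the class I sums of the tissues overlapped. The class I heavy chains summed to 258, 321, 267 and 179.6 TPM in vehicle TA, 343, 258, 174 and 234 in D+Q TA, 277, 353, 276 and 305 in vehicle hearts and 256, 413 and 255 in D+Q hearts. These ranges overlapped in every pair of groups, with means of 257 ± 58.3 (SD, n = 4) TPM in vehicle TA and 303 ± 35.7 (SD, n = 4) in vehicle hearts. The 10 class II chains summed to 167, 233, 150.3 and 158 TPM in vehicle TA, 254, 153, 131 and 147 in D+Q TA, 96.0, 88.7, 67.6 and 83.7 in vehicle hearts and 45.2, 87.96 and 45.0 in D+Q hearts. Every TA mouse was above every heart, with means of 177 ± 38.0 (SD, n = 4) TPM in vehicle TA, 171 ± 55.9 (SD, n = 4) in D+Q TA, 84.0 ± 12.1 (SD, n = 4) in vehicle hearts and 59.4 ± 24.7 (SD, n = 3) in D+Q hearts.

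The ratio of the class II to the class I sum within a mouse does not depend on how the library is scaled. It was 0.646, 0.726, 0.562 and 0.879 in vehicle TA, 0.739, 0.593, 0.750 and 0.630 in D+Q TA, 0.346, 0.252, 0.244 and 0.275 in vehicle hearts and 0.176, 0.213 and 0.177 in D+Q hearts. The TA groups overlapped, both TA groups lay above both heart groups, and the 3 D+Q hearts lay below the 4 vehicle hearts. Without replicate 3, the mouse whose sex genes went against its label, the highest D+Q heart was still replicate 2, at 0.213, against a lowest vehicle heart of 0.244. The mean log2 ratio of the D+Q hearts was different by -0.56 from that of the vehicle hearts (0.680-fold), and by -0.65 to -0.45 when any 1 heart was left out. These sums are descriptions of a chosen set of genes and were given no test.

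**Figure D1:**
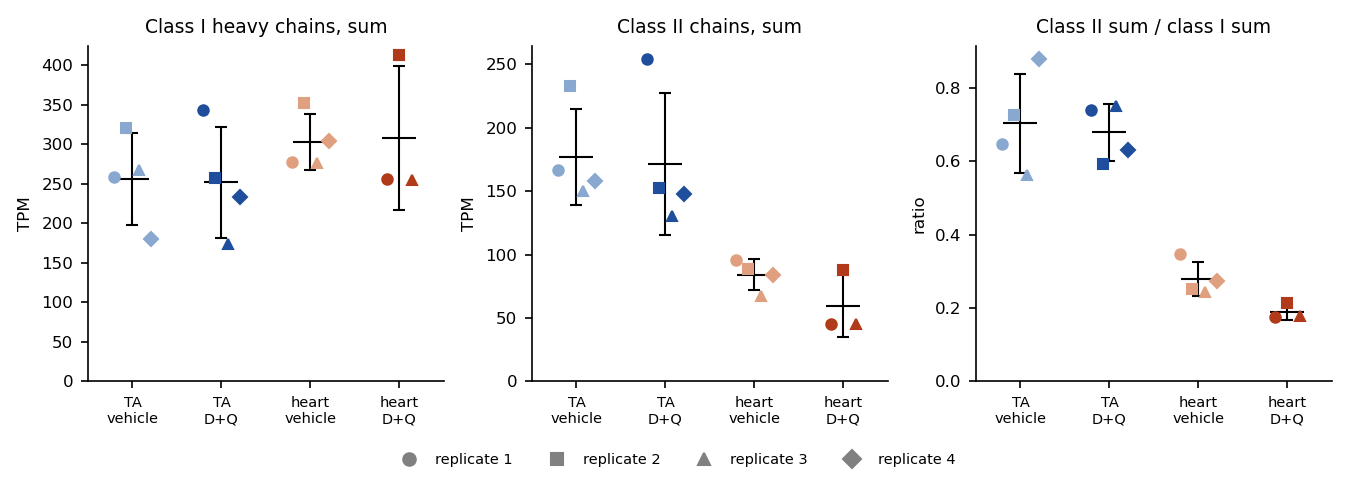
Summed TPM of the 30 class I heavy chains, summed TPM of the 10 class II chains and their ratio, for every mouse (symbols by replicate number) in the 4 groups, with the mean and SD in black. Class II sums run from 131 to 254 TPM in TA and from 45.0 to 96.0 in hearts, while the class I sums of the tissues overlap.

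The 4 abundant classical class II chains, H2-Aa and H2-Ab1 of the I-A molecule and H2-Ea and H2-Eb1 of the I-E molecule, made up 86.4% to 94.5% of the class II sum. H2-Aa (chr17:34493404-34506798 in GRCm39), the I-A alpha chain, was at 47.0, 65.4, 39.2 and 37.3 TPM in vehicle TA, 72.8, 44.3, 41.1 and 39.6 in D+Q TA, 25.5, 22.4, 16.8 and 22.2 in vehicle hearts and 10.6, 23.1 and 10.2 in D+Q hearts. H2-Ab1 (chr17:34476663-34488393), its beta partner, was at 46.2, 65.6, 42.6 and 54.8 TPM in vehicle TA, 69.4, 41.4, 34.8 and 41.1 in D+Q TA, 28.5, 25.1, 18.4 and 23.1 in vehicle hearts and 13.9, 24.8 and 14.1 in D+Q hearts. For both chains each TA mouse was above each heart. D+Q replicate 1 was the highest TA mouse, vehicle replicate 2 the next, and among the D+Q hearts replicate 2 stood near the vehicle hearts while replicates 1 and 3 were lower.

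The I-E chains followed the same order. H2-Ea (chr17:34560926-34563618), the I-E alpha chain that C57BL/6 mice do not express, was at 36.9, 49.2, 34.2 and 39.8 TPM in vehicle TA, 56.1, 34.6, 29.2 and 33.4 in D+Q TA, 23.1, 19.4, 15.4 and 17.7 in vehicle hearts and 9.59, 19.3 and 8.05 in D+Q hearts. H2-Eb1 (chr17:34504236-34535648), its partner, was at 22.3, 35.1, 21.8 and 17.3 TPM in vehicle TA, 35.3, 17.6, 15.6 and 20.0 in D+Q TA, 12.5, 13.3, 11.3 and 12.6 in vehicle hearts and 7.06, 14.7 and 6.59 in D+Q hearts. H2-Ea was thus present in all 15 mice, as the H2d alleles of DBA/2 allow, at 1.22 to 2.30 TPM for each TPM of H2-Eb1. H2-Ab1 and H2-Aa were closer to parity, at 0.846 to 1.47. The GRCm39 gene models of H2-Aa and H2-Eb1 overlap on opposite strands. H2-Eb2, a further beta chain, reached 0.028 TPM at most.

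**Figure D2:**
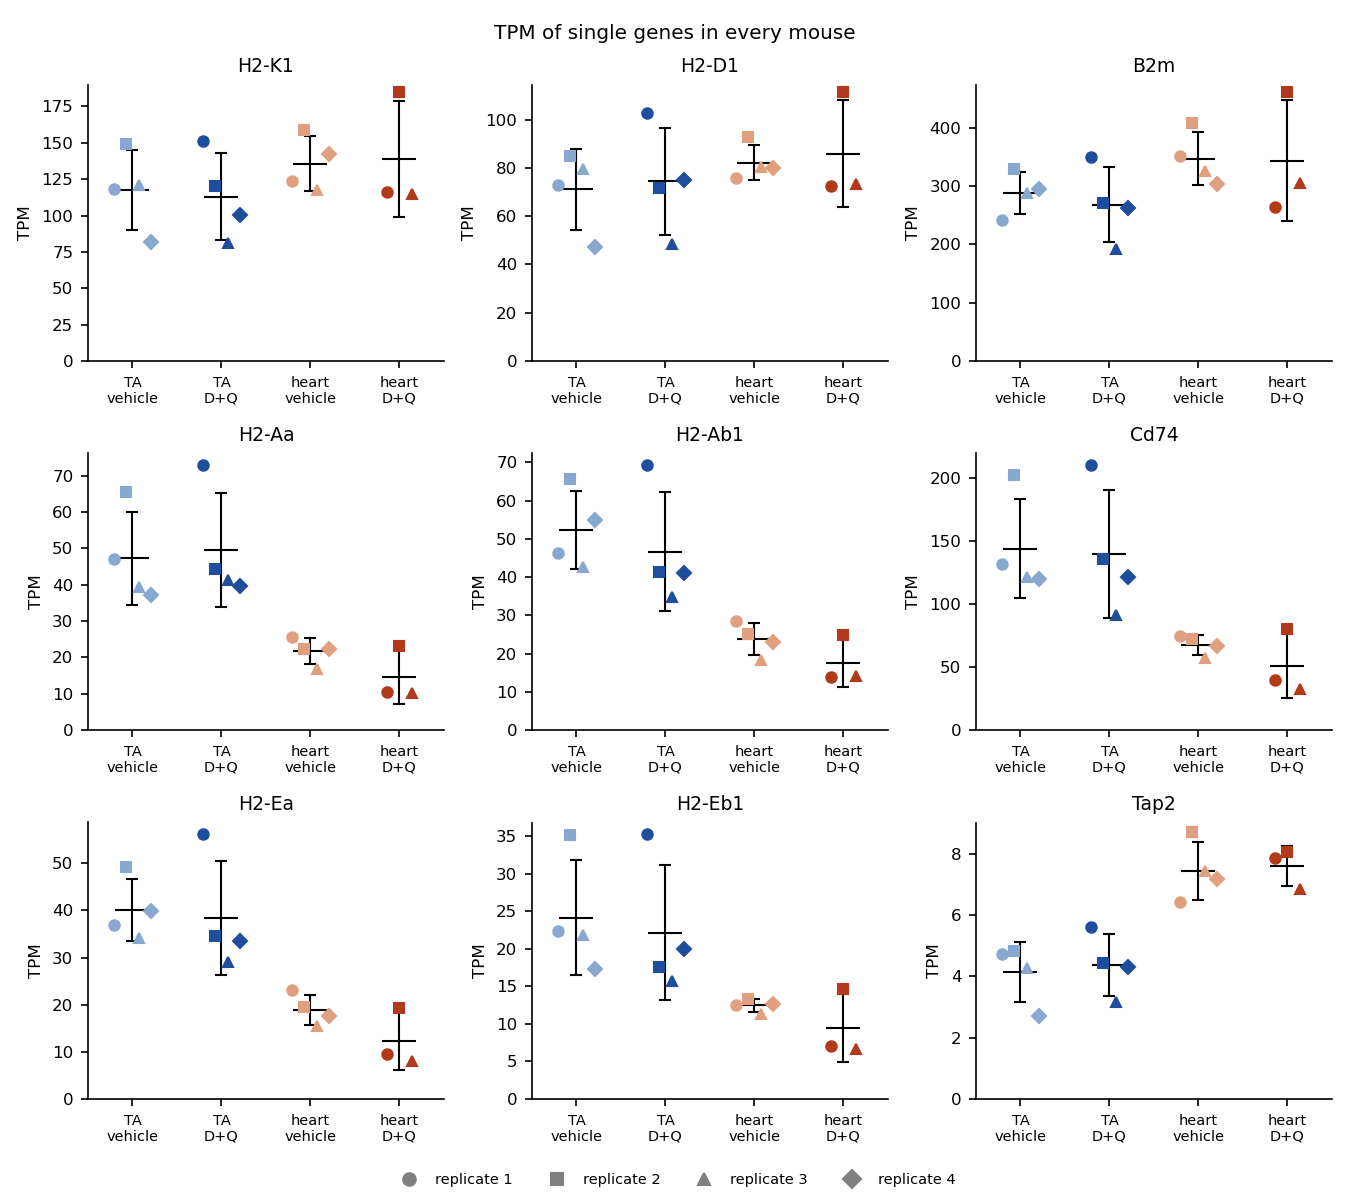
TPM of 9 members in every mouse (symbols by replicate number) with the mean and SD of each group in black. H2-Aa, H2-Ab1, H2-Ea, H2-Eb1 and Cd74 are higher in every TA mouse than in every heart, Tap2 is lower in every TA mouse, and the tissues overlap for H2-K1, H2-D1 and B2m.

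Class II promoters are read by a complex of RFX and NF-Y factors that recruits Ciita, through an X box and, closer to the start, a Y box holding the letters ATTGG. The 130 bases before the GENCODE canonical start are shown for 4 class II genes that stood apart between the tissues and for the class I gene H2-K1 that did not, 5′ to 3′ on the strand of the gene, from the GRCm39 reference, so from C57BL/6J and not DBA/2. Capitals mark ATTGG, or CCAAT on the other strand, and ACNGATG, the end of the X-box consensus, where N is any base. The windows are chr17:34506798-34506927 on the minus strand for H2-Aa, chr17:34482053-34482182 on the plus strand for H2-Ab1, chr17:34524683-34524812 on the plus strand for H2-Eb1, chr17:34354430-34354559 on the plus strand for H2-DMa and chr17:34219322-34219451 on the minus strand for H2-K1.
H2-Aa: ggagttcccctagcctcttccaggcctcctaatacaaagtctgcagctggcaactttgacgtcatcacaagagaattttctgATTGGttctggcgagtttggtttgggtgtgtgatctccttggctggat
H2-Ab1: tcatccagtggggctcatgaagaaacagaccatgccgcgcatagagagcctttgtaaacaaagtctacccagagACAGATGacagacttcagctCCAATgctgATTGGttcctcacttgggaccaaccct
H2-Eb1: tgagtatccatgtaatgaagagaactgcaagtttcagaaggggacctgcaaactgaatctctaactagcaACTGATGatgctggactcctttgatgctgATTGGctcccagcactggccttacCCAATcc
H2-DMa: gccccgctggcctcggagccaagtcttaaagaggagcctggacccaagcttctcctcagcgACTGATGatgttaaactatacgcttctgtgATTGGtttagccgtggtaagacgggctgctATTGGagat
H2-K1: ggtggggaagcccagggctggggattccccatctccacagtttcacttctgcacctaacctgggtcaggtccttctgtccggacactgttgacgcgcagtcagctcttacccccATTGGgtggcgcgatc

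In these windows ACNGATG began at position -56 in H2-Ab1, -60 in H2-Eb1 and -69 in H2-DMa, counted back from the start site, each ahead of an ATTGG. H2-Aa held an ATTGG at -48 and no ACNGATG in the bases shown, and the letters occurred only further out, at -232. Only these exact letters were searched, so an X box spelled otherwise, in H2-Aa or another gene, is not marked. H2-K1 held an ATTGG at -16 and no ACNGATG. Over the 250 bases before the start and both strands, ACNGATG was in 7 of 10 class II promoters, 13 of 30 class I promoters and 7.19% of the promoters of all 21631 protein-coding genes. ATTGG was in 7 of 10 class II, 22 of 30 class I and 36.5% of all promoters. The windows of H2-Ea and H2-DMb1 held neither, which says only that these letters are not in these bases. The H2-Ea window comes from the reference strain, in which a deletion silences this gene, and it is counted among the 10 class II promoters. Whether the H2-Ea promoter of the mice studied here holds these letters was not tested. A match is a description of the letters and not a measured binding site.

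The peptide editors of class II were lower in level than the classical chains. H2-DMa (chr17:34338515-34358958), a chain of the DM molecule that frees the groove from the invariant-chain peptide, was at 8.31, 10.3, 7.74 and 5.43 TPM in vehicle TA, 11.9, 7.54, 6.65 and 7.92 in D+Q TA, 3.64, 4.92, 3.62 and 5.05 in vehicle hearts and 2.32, 4.10 and 3.13 in D+Q hearts. Its partner chains H2-DMb1 and H2-DMb2 reached 5.67 and 2.08 TPM at most. They share 37.6% and 44.3% of their 31-base words with other genes, mostly with each other, so the split between them is uncertain. H2-DMb1 was at 3.48, 4.90, 2.89 and 2.05 TPM in vehicle TA, 5.67, 5.18, 2.28 and 4.21 in D+Q TA, 1.43, 1.48, 1.17 and 2.20 in vehicle hearts and 0.917, 0.987 and 2.50 in D+Q hearts. H2-DMb2 was at 1.99, 2.08, 1.57 and 1.02 TPM in vehicle TA, 1.98, 1.78, 0.843 and 0.979 in D+Q TA, 1.08, 1.34, 0.801 and 0.609 in vehicle hearts and 0.546, 0.401 and 0.276 in D+Q hearts. H2-DMa had no D+Q heart above the highest vehicle heart, and for H2-DMb1 vehicle heart replicate 4 and D+Q heart replicate 3 lay inside the TA range. H2-Oa and H2-Ob, which form the DM inhibitor of B cells, stayed below 0.58 TPM in every mouse.

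Cd74, the invariant chain that guards the groove of new class II molecules and carries them to the endosome, was the most abundant member of the class II route. It was at 132, 203, 122 and 120.0 TPM in vehicle TA, 210.3, 136, 91.0 and 122 in D+Q TA, 75.0, 72.0, 57.2 and 66.5 in vehicle hearts and 39.4, 79.9 and 32.8 in D+Q hearts. Its level relative to the class II sum was between 0.697 and 0.908 over the 15 mice. Ciita, the transactivator of class II genes and of Cd74, was at 1.75, 2.61, 1.24 and 1.28 TPM in vehicle TA, 1.51, 1.101, 1.34 and 1.29 in D+Q TA, 1.16, 1.11, 0.757 and 0.719 in vehicle hearts and 0.438, 0.876 and 0.417 in D+Q hearts, and these low values overlapped between D+Q and vehicle in both tissues.

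Among class I genes, the classical chains H2-K1 and H2-D1 made up 71.4% to 75.1% of the heavy-chain sum. H2-K1 (chr17:34214987-34219321) was at 118, 149, 121 and 82.1 TPM in vehicle TA, 151, 120.0, 81.2 and 100.3 in D+Q TA, 124, 159, 118 and 142 in vehicle hearts and 116, 185 and 115 in D+Q hearts. H2-D1 (chr17:35481691-35486475) was at 72.7, 85.1, 79.7 and 47.2 TPM in vehicle TA, 103, 71.5, 48.6 and 74.9 in D+Q TA, 75.7, 92.6, 80.5 and 79.8 in vehicle hearts and 72.5, 111 and 73.4 in D+Q hearts. D+Q heart replicate 2 was the highest of the 15 mice for both, and no pair of groups was separated. B2m (chr2:121977957-121983594), the light chain, was at 242, 329, 288 and 295 TPM in vehicle TA, 349, 271, 192 and 262 in D+Q TA, 351, 409, 325 and 304 in vehicle hearts and 264, 461 and 306 in D+Q hearts, near 1 TPM for each TPM of heavy chain, with 0.938 to 1.64 over all mice and the highest value in vehicle TA replicate 4.

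The Q and T genes encode non-classical heavy chains, and those above 5 TPM on average in a group were H2-Q4, H2-Q5, H2-Q6, H2-T22, H2-T23 and H2-T24. H2-Q4 was at 11.2, 11.9, 11.2 and 7.95 TPM in vehicle TA, 21.7, 9.59, 6.002 and 9.95 in D+Q TA, 13.7, 16.4, 13.2 and 15.2 in vehicle hearts and 11.3, 21.1 and 11.9 in D+Q hearts. H2-Q5 was at 3.65, 9.03, 3.13 and 2.75 TPM in vehicle TA, 4.77, 3.58, 2.71 and 3.74 in D+Q TA, 5.01, 6.72, 4.44 and 4.94 in vehicle hearts and 4.15, 8.04 and 4.57 in D+Q hearts. H2-Q6 was at 9.58, 13.1, 9.84 and 7.41 TPM in vehicle TA, 14.6, 9.21, 5.83 and 8.96 in D+Q TA, 12.3, 14.4, 12.8 and 10.8 in vehicle hearts and 9.44, 19.9 and 10.004 in D+Q hearts. Vehicle TA and vehicle hearts did not overlap for H2-Q4, and D+Q TA replicate 1 stood above its group for it. H2-T22, of the kind recognised by gamma-delta T cells, was at 9.88, 11.7, 7.21 and 6.80 TPM in vehicle TA, 8.83, 9.21, 6.78 and 7.07 in D+Q TA, 8.76, 12.6, 8.43 and 11.0 in vehicle hearts and 6.998, 12.7 and 8.41 in D+Q hearts. H2-T23, the Qa-1 chain seen by receptors of NK cells, was at 11.4, 14.8, 13.5 and 9.12 TPM in vehicle TA, 15.2, 12.4, 8.43 and 9.15 in D+Q TA, 13.6, 19.4, 14.1 and 14.0 in vehicle hearts and 12.3, 18.3 and 9.59 in D+Q hearts. H2-T24 was at 4.21, 4.39, 4.56 and 3.74 TPM in vehicle TA, 3.68, 5.31, 4.32 and 5.14 in D+Q TA, 6.78, 7.12, 6.38 and 6.35 in vehicle hearts and 7.23, 8.93 and 5.56 in D+Q hearts, and for it every vehicle TA mouse was below every vehicle heart and every D+Q TA mouse below every D+Q heart.

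Assignment among these class I genes is uncertain. Of the 31-base words of their GENCODE canonical transcripts, 43.9% (H2-Q4), 62.9% (H2-Q5), 51.2% (H2-Q6), 61.3% (H2-T22) and 49.2% (H2-T23) also occur in transcripts of other genes, against 23.5% for H2-K1, 28.5% for H2-D1 and 6.41% for H2-T24. For class II the shares were 0% for H2-Aa, H2-Ea and H2-DMa, 0.592% for H2-Ab1 and 1.26% for H2-Eb1, and for B2m 0%. Where words are shared among members, values of single class I genes are therefore less certain than the class I sum. The gene sharing most words was H2-K2 for H2-D1 and H2-T11-ps for H2-T23, neither of them a member. Reads can thus also leave or enter the sum.

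The other class I members were low. H2-Q7 was at 3.31, 4.38, 2.56 and 2.65 TPM in vehicle TA, 3.57, 3.51, 2.10 and 1.63 in D+Q TA, 4.15, 5.61, 4.32 and 5.78 in vehicle hearts and 3.16, 7.003 and 4.54 in D+Q hearts, with every vehicle TA mouse but replicate 2 below every vehicle heart. H2-Q7, Q10, T15, T5 and M3 reached 7.003, 4.98, 4.95, 3.37 and 3.31 TPM at most. H2-T10, Q2, Q1 and T13 reached 1.71, 1.501, 1.49 and 1.12 TPM. H2-T3, M2, T9, M9, M5 and M1 had maxima of 0.574, 0.330, 0.183, 0.147, 0.123 and 0.0338 TPM. H2-M10.1, M10.2, M10.3, M10.4, M10.5, M10.6 and M11 were listed at 0 in every mouse.

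The peptide supply of class I rests on the TAP transporter and tapasin. Tap2 (chr17:34422501-34435829), a chain of the transporter that carries peptides into the endoplasmic reticulum, was at 4.74, 4.83, 4.27 and 2.71 TPM in vehicle TA, 5.598, 4.44, 3.15 and 4.29 in D+Q TA, 6.42, 8.71, 7.44 and 7.16 in vehicle hearts and 7.87, 8.07 and 6.85 in D+Q hearts. Tap1, the other chain, was at 1.96, 3.05, 2.00 and 1.59 TPM in vehicle TA, 8.55, 1.77, 1.05 and 1.71 in D+Q TA, 3.13, 4.23, 3.61 and 2.87 in vehicle hearts and 3.16, 5.02 and 2.54 in D+Q hearts. Tapbp (tapasin, chr17:34134873-34148267), which bridges TAP and the empty class I molecule, was at 25.6, 29.2, 25.7 and 21.4 TPM in vehicle TA, 31.4, 24.9, 16.9 and 25.7 in D+Q TA, 29.5, 36.6, 30.9 and 29.7 in vehicle hearts and 29.96, 35.5 and 27.5 in D+Q hearts. Tap2 was lower in every TA mouse than in every heart, and the value of Tap1 in D+Q TA replicate 1 stood far above the other TA mice.

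The comparison of vehicle TA with vehicle hearts asks how antigen presentation differs between the diseased muscles of mice given vehicle. The classical class II chains were 1.84- to 2.18-fold and Cd74 2.08-fold higher in TA, and no class I gene was called higher. Of the 30 members tested, 7 were called higher in TA, where 24.1% of all 16893 genes tested were, and 4 were called lower, where 14.8% were. H2-Ab1 had the largest of these differences (log2 difference 1.12, standard error 0.17, adjusted p = 5.94e-04). For H2-Aa the log2 difference was 1.08 (standard error 0.20, adjusted p = 0.00162), for H2-Ea 1.06 (standard error 0.16, adjusted p = 4.86e-04) and for H2-Eb1 0.88 (standard error 0.20, adjusted p = 0.00494). Cd74 differed by 1.06 (standard error 0.18, adjusted p = 9.91e-04), H2-DMa by 0.79 (standard error 0.21, adjusted p = 0.0109) and H2-DMb1 by 0.86 (standard error 0.25, adjusted p = 0.0179). H2-DMb2 (0.57, adjusted p = 0.0716) and Ciita (0.60, adjusted p = 0.0505) had positive differences that missed the threshold. Of the 7 class II genes tested, 6 were thus called and none lower, with a median log2 difference of 0.88 beside 0.16 for all genes tested. Groups did not overlap for 7 members in the higher direction (26.7% of all genes) and 4 in the lower (15.3%).

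The 4 members called lower in TA were Tap2 (-0.80, standard error 0.19, adjusted p = 0.00770), H2-T24 (-0.60, standard error 0.13, adjusted p = 0.00381), Tap1 (-0.60, standard error 0.18, adjusted p = 0.0253) and H2-Q7 (-0.57, standard error 0.19, adjusted p = 0.0371). The classical chains had log2 differences of -0.23 (H2-K1, 95% confidence interval -0.64 to 0.18) and -0.24 (H2-D1, -0.64 to 0.17). B2m (-0.27, -0.53 to -0.0035) and Tapbp (-0.31, -0.60 to -0.027) were not called either. H2-Q4 (-0.46, adjusted p = 0.0314) fell short of the minimum difference, and H2-Q5 (-0.30), H2-Q6 (-0.34), H2-T22 (-0.20) and H2-T23 (-0.32) did not pass. The 17 class I genes had a median of -0.23, with 2 called lower and none higher (3 at an unadjusted p under 0.05, all lower). Each of the 7 higher calls held in each fit that left out 1 mouse except H2-DMb1, which was lost without vehicle heart replicate 1 or 3. The calls of Tap1 and H2-Q7 were lost in most of the fits that left out 1 mouse. Both were also lost without the filter on low values and with all 15 mice in 1 fit. Without TA vehicle replicate 1 or 4, or without heart vehicle replicate 2 or 4, both were lost and 2 members were called lower, Tap1 was lost also without heart vehicle replicate 1 or 3, and H2-Q7 without TA vehicle replicate 3 or heart vehicle replicate 1. Over the alternatives run, the adjusted p reached 0.0560 for H2-DMb1, 0.257 for Tap1 and 0.127 for H2-Q7.

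TPM moves with the few most abundant muscle transcripts, and another scaling moved all genes. With median-of-ratios factors the median of all genes went from 0.16 to 0.00043, and the calls among all genes from 4073 higher and 2499 lower to 2954 and 3331. Under that scaling the members called were 7 higher and 7 lower, the class II median was 0.71 and the class I median -0.41, with all 7 class II genes positive and all 17 class I genes negative.

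**Figure D3:**
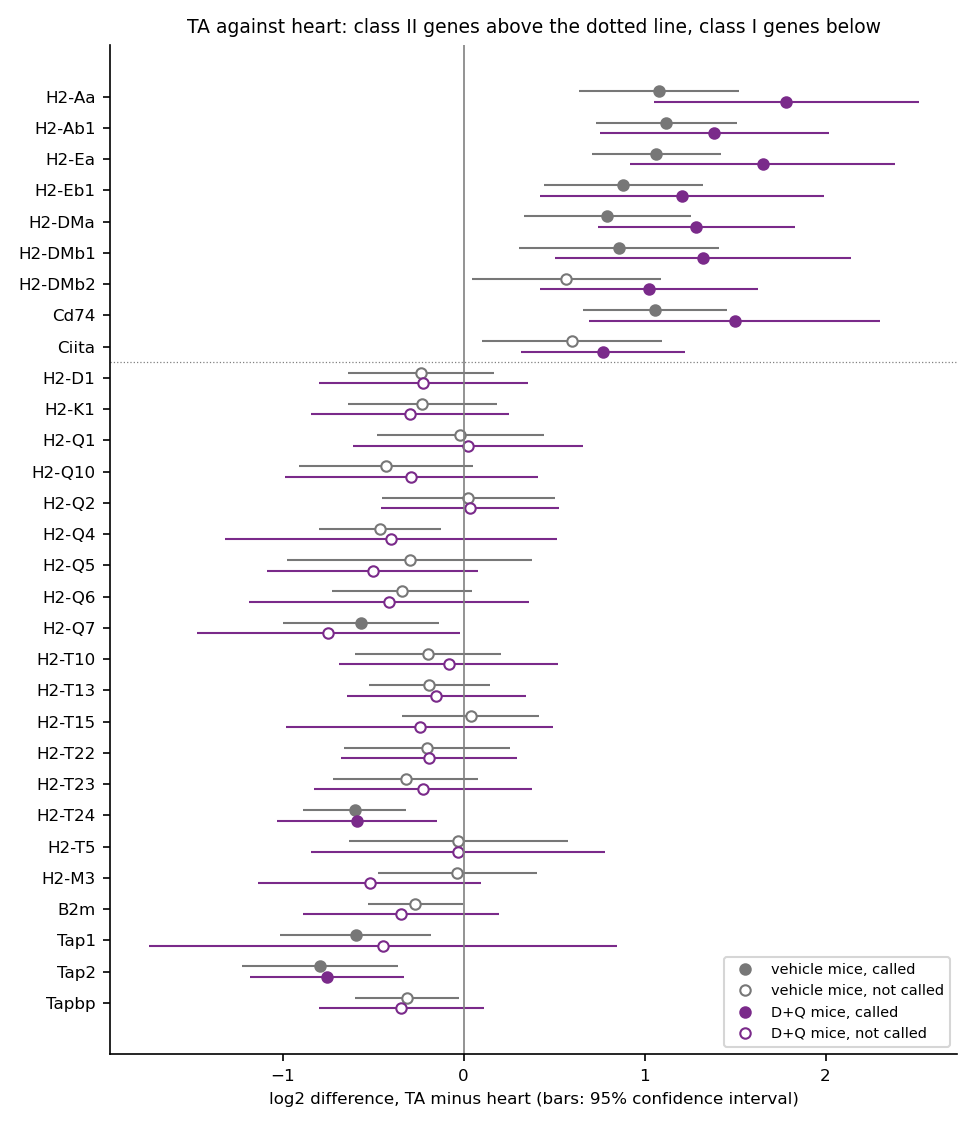
Log2 difference between TA and heart of the 30 members tested, in vehicle mice (grey) and in D+Q mice (purple), with 95% confidence intervals; filled points passed the thresholds. The class II genes with Cd74 and Ciita, above the dotted line, all lie to the right of 0, and the class I genes with B2m, Tap1, Tap2 and Tapbp lie near 0 or to the left.

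D+Q TA was set against D+Q hearts as the other pair of groups, with different mice but the same difference in age and length of treatment. All 4 D+Q TA mice were male, whereas the 3 D+Q hearts read as female from Xist and the Y-linked genes (2 of the 3 are labelled so), so in this pair sex as read from expression cannot be told apart from tissue either, and the fit had no covariate. All 7 class II genes tested, Cd74 and Ciita were called higher in TA, 9 members in all, where 21.2% of 16381 genes tested were, and 2 members were called lower, where 15.6% were. H2-Aa was 3.44-fold higher in TA (1.78 on the log2 scale, standard error 0.32, adjusted p = 0.00234) and H2-Ea 3.14-fold (1.65, standard error 0.32, adjusted p = 0.00352). Cd74 differed by 1.498 (adjusted p = 0.00921), H2-Ab1 by 1.39 (adjusted p = 0.00414), H2-DMb1 by 1.32 (adjusted p = 0.0172), H2-DMa by 1.29 (adjusted p = 0.00273), H2-Eb1 by 1.21 (adjusted p = 0.0213), H2-DMb2 by 1.02 (adjusted p = 0.0139) and Ciita by 0.77 (adjusted p = 0.0140). The class II median was 1.32, beside 0.10 for all genes tested. Tap2 (-0.75, adjusted p = 0.0112) and H2-T24 (-0.59, adjusted p = 0.0388) were the members called lower. H2-K1 (-0.30), H2-D1 (-0.22), B2m (-0.35) and Tapbp (-0.34) were not called, and the class I median was -0.24. Without heart D+Q replicate 3, whose sex genes went against its label, 6 members were called higher and 2 lower, with H2-Eb1, H2-DMb2 and Ciita lost. Without heart D+Q replicate 1, 6 were called higher and 1 lower, with H2-Eb1, H2-DMb1 and Ciita among those lost. H2-T24 was lost in 5 of the 7 fits that left out 1 mouse, kept only without TA D+Q replicate 2 or heart D+Q replicate 3, and without heart D+Q replicate 2 the members called were 8 higher, H2-DMb1 being lost, and 1 lower. Groups did not overlap for 8 members higher in TA (28.2% of all genes) and 3 lower (20.2%).

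Other genes of the same routes, taken from lists, also differed between the tissues. Of 6 genes of class II processing, 5 were called higher in vehicle TA (median 0.72), where 24.1% of all genes tested were. Ctss, the endosomal protease cathepsin S that trims the invariant chain, was at 101, 94.1, 110.5 and 61.6 TPM in vehicle TA, 129, 148, 79.4 and 98.4 in D+Q TA, 16.3, 22.8, 20.7 and 13.9 in vehicle hearts and 15.5, 22.7 and 10.3 in D+Q hearts, 4.85-fold higher in vehicle TA (adjusted p = 2.23e-05). Ifi30, a thiol reductase that unfolds antigens, differed by 1.09 on the log2 scale (adjusted p = 0.00103), followed by Marchf1 (0.79, adjusted p = 0.00513), Lgmn (0.65, adjusted p = 0.00835) and Ctsl (0.58, adjusted p = 0.00779). The immunoproteasome, which cuts peptides for class I, had 4 of 5 genes called lower in TA and none higher (median -0.67). Of all genes tested 14.8% were called lower. Psmb10, a catalytic subunit, was at 11.0, 6.51, 8.42 and 6.29 TPM in vehicle TA, 10.2, 5.9997, 7.37 and 11.4 in D+Q TA, 22.3, 23.3, 22.3 and 25.6 in vehicle hearts and 20.1, 22.9 and 20.2 in D+Q hearts (-1.51, adjusted p = 2.62e-05). Psme1, a subunit of the proteasome activator, differed by -1.32 (adjusted p = 1.20e-05), Psmb8 by -0.64 (adjusted p = 0.0182) and Psme2 by -0.58 (adjusted p = 0.00150). Between the D+Q groups the same lists had 5 of 6 class II processing genes called higher in TA (Ctss at 2.81, Ifi30 at 1.65) and 4 of 5 immunoproteasome genes called lower (Psme1 at -1.60, Psmb10 at -1.26). Among all genes tested in that pair, 21.2% were called higher and 15.6% lower.

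Regulators showed no single direction, in a comparison where 24.1% of all genes tested were called higher in TA and 14.8% lower. Of 7 transactivator genes, Nfyb (1.87, adjusted p = 1.59e-05) and Rfxap (0.65, adjusted p = 0.00340) were higher in vehicle TA and Rfxank (-0.89, adjusted p = 0.00607) lower. Of the 9 genes of the interferon gamma pathway 7 were tested, of which Jak2 (1.17, adjusted p = 1.58e-04), Irf8 (0.80, adjusted p = 0.00985) and Jak1 (0.70, adjusted p = 8.44e-04) were higher and Ifngr2 (-0.67, adjusted p = 0.0252) lower. Ifng itself stayed below 0.05 TPM in every mouse. Of 5 peptide-loading genes Calr was higher (0.50, adjusted p = 0.00863), while Canx, with the next largest difference, was at -0.33. Of 5 co-stimulation genes Icosl (-0.97, adjusted p = 3.90e-04) and Cd40 (-0.71, adjusted p = 0.0211) were lower.

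Ptprc and some myeloid markers were higher in TA, as class II genes were, while the few B cell and T cell markers tested were lower. Ptprc, the marker of all leukocytes, was at 14.1, 17.6, 16.96 and 11.9 TPM in vehicle TA, 18.4, 16.0, 11.4 and 14.9 in D+Q TA, 5.74, 8.79, 5.80 and 5.52 in vehicle hearts and 5.46, 6.62 and 4.31 in D+Q hearts (1.18 on the log2 scale in vehicle mice, adjusted p = 6.19e-04). The 8 macrophage markers summed to 148 to 263 TPM in vehicle TA, 157 to 297 in D+Q TA, 118 to 164 in vehicle hearts and 112 to 155 in D+Q hearts. In vehicle TA 4 of 8 were called higher (Cd68 at 1.70, Itgam at 1.06, Adgre1 at 1.04 and Csf1r at 0.56) and Cd163 lower (-0.60). The shares of all genes tested were 24.1% called higher and 14.8% called lower. Of 7 dendritic cell markers 3 were tested and 2 called higher, Itgax (3.02) and Cd209a (0.69), and Itgax is also carried by macrophages. The third, Zbtb46, was at -0.30 in vehicle mice (adjusted p = 0.145), and between the D+Q groups it was called lower in TA (-0.71, adjusted p = 0.00344) while Itgax was called higher (3.80). The list summed to 11.5 to 33.1 TPM in TA and 8.41 to 11.5 in hearts. B cell and T cell markers were low, at 0.207 to 1.01 and 0.342 to 1.59 TPM in TA and 0.767 to 4.60 and 1.35 to 4.44 in hearts. Between vehicle tissues 1 of 5 B cell markers (Cd79a) and 2 of 5 T cell markers (Cd3e and Cd3g) were tested, all called higher in hearts. Cd4, of the T cell list, was too low to test and overlapped, at 0.271, 0.367, 0.200 and 0.432 TPM in vehicle TA and 0.340, 0.224, 0.153 and 0.265 in vehicle hearts. The 3 NK cell markers summed to 0.270 to 1.08 TPM in TA and 0.198 to 0.717 in hearts. The 6 endothelial markers summed to 141 to 199.7 TPM in vehicle TA and 199.9 to 225 in vehicle hearts, with Kdr and Emcn lower in TA. The contribution of these cell types to the class II and class I differences was not tested, and in bulk samples more cells of a type and more RNA per cell cannot be told apart.

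**Figure D4:**
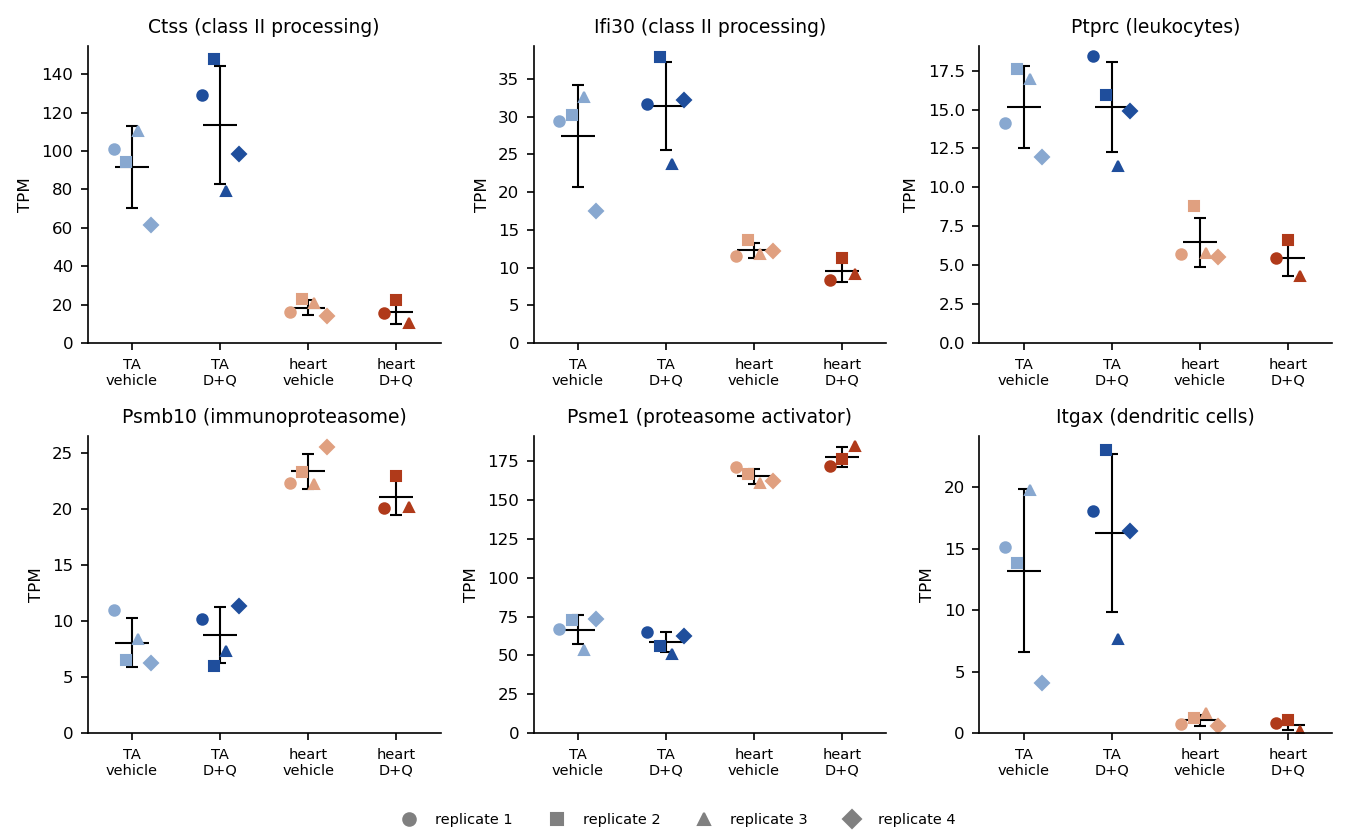
TPM of 6 genes outside the member set in every mouse (symbols by replicate number), with the mean and SD of each group in black. Ctss, Ifi30, Ptprc and Itgax are higher in every TA mouse than in every heart, and Psmb10 and Psme1 are lower in every TA mouse.

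In TA, the comparison of D+Q with vehicle asks whether 2 months of D+Q changed antigen presentation in young muscle. None of the 30 members was called by limma, and none of the 16298 genes tested was (0%). At an unadjusted p under 0.05 there were 0 members, where 2.99% of all genes were, and the groups overlapped for every member, where 1.52% of all genes did not. The adjusted p was 0.999 for each member. H2-Aa differed by -0.025 on the log2 scale (95% confidence interval -0.51 to 0.46), H2-Ab1 by -0.28 (-0.73 to 0.17), H2-Ea by -0.18 (-0.60 to 0.23) and H2-Eb1 by -0.29 (-0.80 to 0.21). Cd74 was at -0.19 (-0.68 to 0.30), H2-K1 at -0.18 (-0.59 to 0.23), H2-D1 at -0.11 (-0.48 to 0.26) and B2m at -0.22 (-0.55 to 0.11). The median over the members tested was -0.19, with 3 positive and 27 negative, beside -0.072 over all genes, and it was -0.18 for class II and -0.21 for class I. These signs depended on the fit, whose surrogate variable was highest in D+Q replicate 1 (0.70). With no covariate, 9 members were positive and 21 negative (median -0.071). With the labelled sex in its place, 5 of 7 class II genes were positive (median 0.048) while the class I median was -0.081. With median-of-ratios scaling 7 members were positive, and the differences of the class I and class II sums turned from -0.036 and -0.076 to 0.046 and 0.0063. H2-M3, at -0.44, had the smallest unadjusted p of the members (0.0519). None of the genes of the 6 pathway lists was called.

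The spread inside the TA groups was wider than the distance between them. D+Q replicate 1 was the highest of the 8 TA mice for 18 of the 30 members and vehicle replicate 2 for 9, whereas D+Q replicate 3 was the lowest for 20. Ptprc had the same extremes, with 18.4 TPM in D+Q replicate 1 and 11.4 in D+Q replicate 3, and vehicle replicate 2 at 17.6. D+Q replicate 1 also carried the highest Irf1, a factor induced by interferon gamma, at 37.1 TPM against 10.9 to 15.5 in vehicle TA, and the highest Nlrc5, the class I transactivator, at 6.23 against 1.62 to 2.94. Leaving out D+Q replicate 1 or any other TA mouse gave no called member.

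In the heart, the comparison of D+Q with vehicle asks the same after 4 months in older mice. No member was called by limma, where 0.105% of the 16132 genes tested were called higher and 0.211% lower. Class II genes had the larger negative differences, with all 7 tested below 0 and a median of -0.51, beside -0.067 for class I and -0.0025 for all genes. H2-Ea differed by -0.71 (95% confidence interval -1.38 to -0.032, adjusted p = 0.265), H2-Aa by -0.66 (-1.35 to 0.036, adjusted p = 0.305), H2-Eb1 by -0.51 (-1.09 to 0.074, adjusted p = 0.341) and H2-Ab1 by -0.46 (-1.01 to 0.095, adjusted p = 0.361). Cd74 was at -0.55 (-1.21 to 0.10), Ciita at -0.45 (-0.96 to 0.063), H2-DMa at -0.40 (-0.88 to 0.088) and H2-DMb1 at -0.036 (-0.52 to 0.45). H2-DMb2 had the smallest adjusted p of the members (-0.71, -1.19 to -0.23, adjusted p = 0.153), at a level under 1.4 TPM. The classical class I chains were at -0.021 (H2-K1, -0.45 to 0.40) and 0.00098 (H2-D1, -0.33 to 0.34), and B2m was at -0.076 (-0.52 to 0.36). At an unadjusted p under 0.05 there were 2 members, H2-DMb2 and H2-Ea, both lower, where 7.99% of all genes were lower. The groups did not overlap for 2 members, H2-DMb2 and H2-T10, both lower (5.57% of all genes), and for none in the higher direction (9.63%). For the lower direction both counts, 2 of 30, lie near the share of all genes.

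Single hearts decided how large these differences were. D+Q replicate 2 was the highest of the 7 hearts for 17 of the 30 members, 13 of them class I, while replicate 3 was the lowest for 15 and replicate 1 for 12. Without D+Q replicate 2 the class II median was -0.73 and 12 members were lower at an unadjusted p under 0.05, with none called. Without replicate 1 the class II median was -0.32 and the class I median 0.11. Without replicate 3, whose sex genes went against its label, the class II median was again -0.32 with all 7 negative, the class I median was 0.057, H2-Aa was at -0.30 (adjusted p = 0.764), H2-Ea at -0.33 (adjusted p = 0.720), and no member was lower at an unadjusted p under 0.05. With the sex read from expression as covariate in place of the labelled one, the class II median was -0.45 and 6 of 7 genes were negative.

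Atrial muscle genes moved with the D+Q group in the heart. The 5 atrial markers summed to 864, 4260.5, 2221 and 1104 TPM in vehicle hearts and 382, 427 and 427 in D+Q hearts, and 3 of 5 were called lower (Myl7, Myl4 and Sln). Most of the D+Q sum was Nppa, at 373 to 421 TPM. Myl7 was at 3.46 to 4.54 TPM in D+Q hearts against 94.1 to 730 in vehicle hearts. Atrial content and D+Q therefore cannot be told apart in these hearts. When an atrial score from these markers entered the fit as covariate, the class II median was -0.88 with all 7 genes negative, the class I median was 0.35 and the median of all genes was 0.31, and no member was called. Since 4 of 5 markers did not overlap between D+Q and vehicle hearts, this fit cannot separate atrial content from treatment. Ptprc differed by -0.28 in D+Q hearts (adjusted p = 0.378), the macrophage markers had a median of -0.17, and none of them was called. Of 7 dendritic cell markers 3 were tested in heart, with a median of -0.34. Itgax was at -0.53 (adjusted p = 0.171) and Zbtb46 at 0.30 (adjusted p = 0.154). For Zbtb46 every D+Q heart was above every vehicle heart (6.58 to 8.32 against 5.605 to 6.23 TPM). Flt3, Xcr1, Clec9a and Ccr7 were too low to test, so these values do not give the number of dendritic cells. The B cell markers summed to 0.767 to 1.57 TPM in D+Q and 1.52 to 4.60 in vehicle hearts, with Cd79a at -0.54 (adjusted p = 0.311), not called. Ifi30 was lower in each D+Q heart than in each vehicle heart (8.42, 11.3 and 9.09 against 11.5, 13.6, 11.8 and 12.2 TPM), though not called (-0.36, adjusted p = 0.170).

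**Figure D5:**
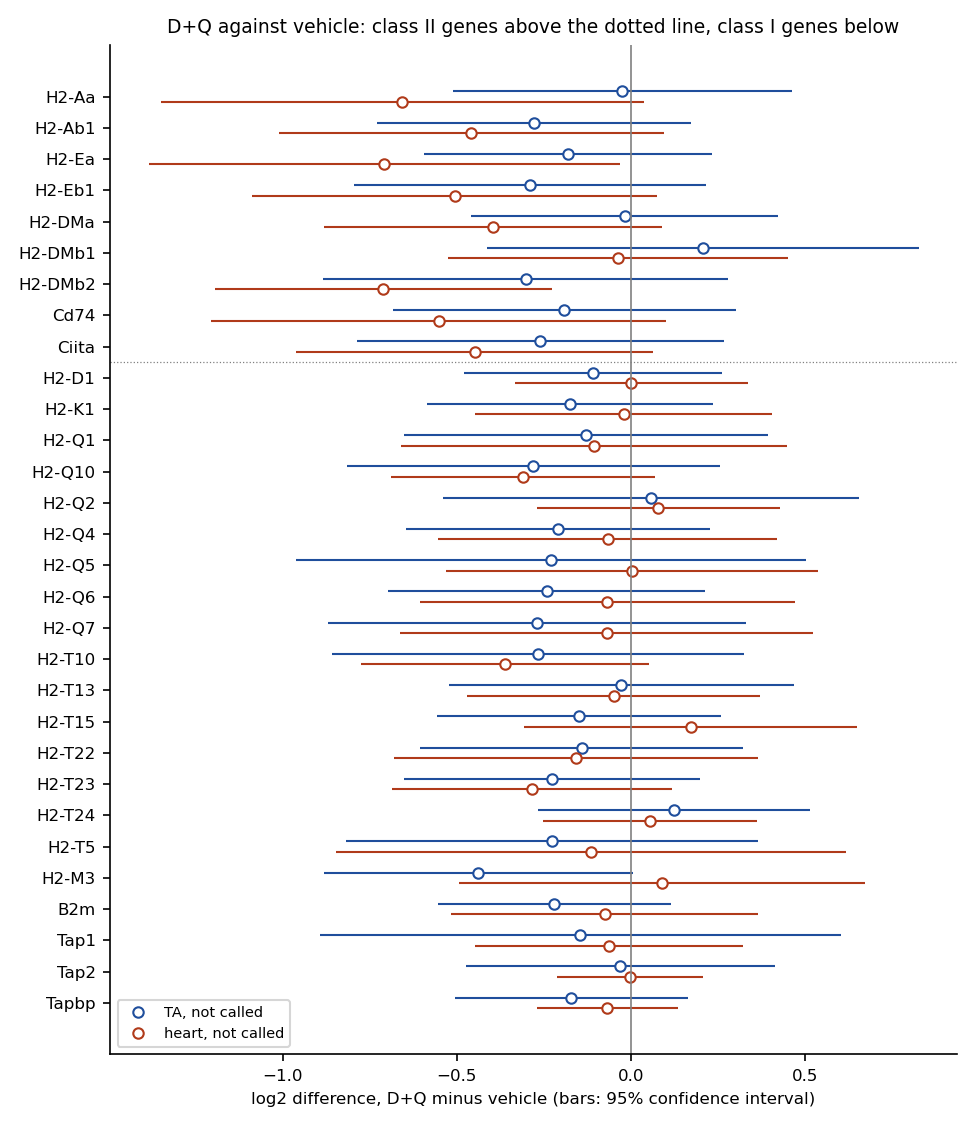
Log2 difference between D+Q and vehicle of the 30 members tested, in TA (blue) and heart (red), with 95% confidence intervals; open points did not pass the thresholds, which is every point. In the heart the class II genes above the dotted line lie at -0.036 to -0.71 and the class I genes scatter about 0.

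Whether D+Q acted differently in heart and TA was tested as the difference of the effects over all 15 mice. No member was called, where 0.0616% of the 17868 genes tested were, and no member had an unadjusted p under 0.05. All 7 class II genes had negative values (heart minus TA) with a median of -0.46, beside -0.012 for class I and 0.067 for all genes. H2-Aa was at -0.70 (95% confidence interval -1.52 to 0.12, adjusted p = 0.910), the smallest p among the members, and H2-Ea at -0.59 (-1.36 to 0.18, adjusted p = 0.919). H2-K1 (0.068, -0.60 to 0.73) and H2-D1 (-0.015, -0.70 to 0.67) lay near 0 with wide intervals. Leaving out any 1 mouse, D+Q heart replicate 3 included, gave no called member. A difference between the tissues in the response of class II genes was therefore not detected with these numbers of mice.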

How the data were processed

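RNA of 15 DBA/2J-mdx mice was sequenced as mRNA libraries from total RNA. The deposited table holds TPM values that the authors made from reads trimmed with Trim Galore 0.6.10 and quantified with Salmon 1.10.3 on GRCm39. Reads are shared out by a model, so alleles that differ from the reference and near-identical genes can shift values, and TPM keeps no depth. Genes were matched to GENCODE M39 (56236 of 56980). Differences were fitted on log2(TPM + 0.5) with limma 3.58.1 (R 4.3.3), with Benjamini-Hochberg adjustment and two-sided tests. TA fits had 1 surrogate variable, heart and vehicle tissue fits had the labelled sex, and D+Q tissue and interaction fits had no covariate. The fits were tested on simulated data. Promoters were read from the GRCm39 genome. Members named are those of at least 5 TPM as a group mean and those called. The members, lists and motifs were chosen with earlier results of these data known. Alternatives covered pseudocounts of 0.1 and 1, filters, scaling, covariates and leaving out each mouse.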

Additional observations from a re-analysis of the deposited data

Results flagged for a closer look

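Each named gene, class sum or ratio was looked at within each group of 4 mice, 75 cases in all. In 5 of them 1 mouse stood apart from the other 3 (its gap to the nearest over the whole range of the group passed Dixon's 95% critical value). Chance gives about 1 in 20 for independent cases, but these share the same mice and many of the genes move together. Cd74 was at 203 TPM in vehicle TA replicate 2, against 120 to 132 TPM in the other vehicle TA mice. H2-Q5 was at 9.03 TPM in the same mouse, against 2.75 to 3.65 TPM, and it shares 62.9% of its 31-base words with other genes. H2-Aa was at 72.8 TPM in D+Q TA replicate 1, against 39.6 to 44.3 TPM in the other D+Q TA mice. Tap1 was at 8.55 TPM in that mouse, against 1.05 to 1.77 TPM. H2-T23 was at 19.4 TPM in vehicle heart replicate 2, against 13.6 to 14.1 TPM in the other vehicle hearts.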

How the results depend on the processing

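In vehicle mice, members called lower in TA numbered 4, and 2 without the filter on low values, 7 with median-of-ratios scaling, 2 with all 15 mice in 1 fit, and 2 to 6 when 1 mouse was left out. Those called higher numbered 7, and 6 to 9 when 1 mouse was left out. Between D+Q tissues the lower calls ran from 1 to 2 and the higher calls from 6 to 9 when 1 mouse was left out. With the mean of log2 over members in place of the sum, the log2 difference of class II between vehicle TA and vehicle hearts was 0.80 (sum 1.06). The log2 difference between TA and heart in the class II to class I ratio was 1.04 (sums 1.33) in vehicle mice. In D+Q mice it was 1.45 (sums 1.84). In hearts the mean of log2 was 2.11 with D+Q and 2.55 with vehicle for class II, and 2.42 and 2.47 for class I. The ratio thus differed less between D+Q and vehicle hearts than with the sums (-0.56 on the log2 scale). D+Q gave no called member in either tissue, and no called interaction, under any alternative run. No called value changed sign. Replicate numbers name different mice and did not pair them (mean correlation of same-numbered mice -0.12 in TA, 0.0035 in heart and 0.014 between tissues). With the replicate number as a block, members called between vehicle tissues were 9 higher and 4 lower, and by D+Q 0 in either tissue. Over all genes, calls by D+Q in heart were 17 higher and 34 lower, and 0 and 0 without the filter or with the atrial score, 2 and 11 without the variance trend, and 3 and 22 with the sex read from expression. Median-of-ratios scaling of the D+Q tissue fit, sex read from expression between vehicle tissues, and leave-outs for the interaction were added after the data were seen. TPM without depth gives no counting error, and 3 or 4 mice per group set the width of the intervals.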
